A study of Homo sapiens with 12 samples.

Results

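The genes described here are 50 genes of the DNA damage response and of DNA repair, grouped into 8 roles: 12 mediators of homologous recombination, 6 factors of end resection and helicases, 9 genes of the Fanconi anaemia pathway, 5 of end joining, 10 damage signalling and checkpoint clamp genes, 4 factors of the chromatin at breaks, 2 poly-ADP-ribose polymerases and 2 mismatch repair genes. They were taken by symbol, as a fixed list of names, from a count table of 58735 lines; the list was drawn up with earlier results of these data known. Each of the 50 symbols was found on 1 line, and all 50 passed the filter on low counts, which left 16946 genes for testing; a member had between 44 and 17988 counts in a library. RNA was sequenced from CAL-27 and SCC-15, both human lines of oral squamous cell carcinoma. The groups were CAL-27 with shTTK, CAL-27 with shControl, SCC-15 with shTTK and SCC-15 with shControl, of 3 libraries each, where shTTK is a short hairpin RNA against TTK (MPS1), a kinase that holds mitosis until chromosomes are attached to the spindle. The labels also give the control samples as WT and Untreated, so whether they carried a control hairpin is not settled by them. They do not say how many hairpins or clones were used, nor whether the numbered libraries came from separate cultures; the p-values rest on the spread between libraries, which may be technical only.

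A double-strand break is either joined end to end, by the Ku proteins and the kinase DNA-PKcs with ligase IV, or it is resected to single strands and repaired from the sister chromatid by homologous recombination, in which BRCA1, PALB2 and BRCA2 act in turn. The kinases ATM and ATR signal the damage to CHEK2 and CHEK1, a ring-shaped clamp of RAD9A, RAD1 and HUS1 helps to activate ATR, and the Fanconi proteins deal with crosslinks between the DNA strands. Many of these genes are transcribed most in S phase, and cells that missegregate chromosomes after loss of the spindle checkpoint can acquire DNA damage.

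The library totals ranged from 16176655 to 18484112 counts. TTK had 35.6, 32.5 and 33.5 CPM (counts scaled to library size by TMM) in the CAL-27 shTTK libraries, against 46.4, 48.4 and 53.4 CPM in the CAL-27 shControl libraries. In SCC-15 it had 26.9, 29.2 and 34.3 CPM with shTTK, against 67.5, 69.4 and 72.9 CPM with shControl. The groups did not overlap in either line, and TTK was lower by 31.4% in CAL-27 and by 56.9% in SCC-15, so the knockdown left a large part of the transcript, more of it in CAL-27. The SCC-15 libraries numbered 1 stood apart from the other libraries of their group: the mean chi-square per gene of shTTK library 1 against libraries 2 and 3 was 3.07 and 3.78, with 1.95 between libraries 2 and 3, and that of shControl library 1 was 5.62 and 5.96, with 1.98 between libraries 2 and 3. By the median over genes the gap was smaller. As a multiple of the median expected from counting alone, it was 1.92 and 2.11 for shControl library 1, with 1.76 between libraries 2 and 3. For shTTK library 1 it was 2.19 and 2.63, with 1.77 between libraries 2 and 3, and for CAL-27 shControl pairs 2.07 to 2.14. SCC-15 calls that were lost without both SCC-15 libraries numbered 1 are named beside the results. All 8 squamous epithelium markers were above 1 CPM in every group; they summed to 4172 to 4252 CPM in CAL-27 shTTK libraries, against 2241 to 2405 CPM in CAL-27 shControl, and to 6739 to 6768 CPM in SCC-15 shTTK, against 7262 to 7584 CPM in SCC-15 shControl. Their part in the members' changes was not tested. Leukocyte markers summed to 0.279 to 0.758 CPM in SCC-15 shTTK libraries, 0.457 to 0.469 CPM in SCC-15 shControl, 11 to 14 CPM in CAL-27 shTTK and 8.23 to 11.8 CPM in CAL-27 shControl, nearly all of it CD14 in CAL-27. CDH5, an adhesion protein of endothelium, had 71.5 ± 0.569 CPM in CAL-27 shTTK and 104 ± 4.21 CPM in CAL-27 shControl (SD, n = 3 each). In SCC-15 it had 0.954 ± 0.122 CPM with shTTK and 0.902 ± 0.223 CPM with shControl (SD, n = 3 each). It made up nearly all of the sum of the 4 endothelium markers in CAL-27. PECAM1 and CLDN5 did not exceed 1 CPM on average in CAL-27 shTTK, nor did VWF and CLDN5 in CAL-27 shControl. None of the 4 exceeded 1 CPM on average in either SCC-15 group.

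Promoters are shown for 6 members on which the results below turn: RBBP8, the member with the largest knockdown change, TOPBP1 and XRCC6, which responded differently in the lines, and CHEK1, FANCD2 and PARP2, which differed by at least 2-fold between the lines. Each sequence is RefSeq's on GRCh38.p14, 300 bases from 250 before to 50 after the annotated start, written 5′ to 3′ along the gene's own strand. Capitals mark 2 kinds of word, searched on both strands: 4 forms of the E2F site of S phase genes (TTTCCCGC, TTTCGCGC, TTTGCCGC and TTTGGCGC) and the CCAAT box (CCAAT). The windows are chr18:22933078-22933377 on the plus strand for RBBP8, chr3:133661892-133662191 on the minus strand for TOPBP1, chr22:41621045-41621344 on the plus strand for XRCC6, chr11:125625979-125626278 on the plus strand for CHEK1, chr3:10026187-10026486 on the plus strand for FANCD2 and chr14:20343385-20343684 on the plus strand for PARP2.
RBBP8: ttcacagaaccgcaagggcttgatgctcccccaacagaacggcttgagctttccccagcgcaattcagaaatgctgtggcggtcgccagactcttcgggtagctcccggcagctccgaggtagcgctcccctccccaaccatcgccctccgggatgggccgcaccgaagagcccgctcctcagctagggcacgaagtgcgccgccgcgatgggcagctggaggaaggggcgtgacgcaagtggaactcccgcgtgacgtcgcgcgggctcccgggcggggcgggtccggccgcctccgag
TOPBP1: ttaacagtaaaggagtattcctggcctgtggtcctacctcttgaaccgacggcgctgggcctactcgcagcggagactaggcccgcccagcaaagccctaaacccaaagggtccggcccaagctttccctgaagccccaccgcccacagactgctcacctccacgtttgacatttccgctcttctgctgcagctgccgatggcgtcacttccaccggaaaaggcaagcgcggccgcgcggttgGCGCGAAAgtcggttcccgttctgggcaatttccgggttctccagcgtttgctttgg
XRCC6: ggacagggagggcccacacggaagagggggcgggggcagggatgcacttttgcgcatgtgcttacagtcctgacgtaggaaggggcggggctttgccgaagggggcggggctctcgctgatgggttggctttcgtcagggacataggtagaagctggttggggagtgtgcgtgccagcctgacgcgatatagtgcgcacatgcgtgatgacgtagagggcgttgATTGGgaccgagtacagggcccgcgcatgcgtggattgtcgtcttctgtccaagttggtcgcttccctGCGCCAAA
CHEK1: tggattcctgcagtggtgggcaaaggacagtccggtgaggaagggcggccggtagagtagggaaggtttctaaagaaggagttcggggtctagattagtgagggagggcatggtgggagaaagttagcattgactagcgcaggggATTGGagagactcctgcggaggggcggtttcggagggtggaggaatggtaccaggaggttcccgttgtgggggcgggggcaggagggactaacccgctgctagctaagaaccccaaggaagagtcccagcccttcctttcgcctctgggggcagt
FANCD2: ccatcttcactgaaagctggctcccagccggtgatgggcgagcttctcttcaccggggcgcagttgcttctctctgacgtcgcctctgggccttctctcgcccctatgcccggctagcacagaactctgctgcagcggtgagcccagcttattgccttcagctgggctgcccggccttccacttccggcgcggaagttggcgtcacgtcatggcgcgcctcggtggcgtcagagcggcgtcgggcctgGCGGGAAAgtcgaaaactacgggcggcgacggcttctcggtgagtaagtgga
PARP2: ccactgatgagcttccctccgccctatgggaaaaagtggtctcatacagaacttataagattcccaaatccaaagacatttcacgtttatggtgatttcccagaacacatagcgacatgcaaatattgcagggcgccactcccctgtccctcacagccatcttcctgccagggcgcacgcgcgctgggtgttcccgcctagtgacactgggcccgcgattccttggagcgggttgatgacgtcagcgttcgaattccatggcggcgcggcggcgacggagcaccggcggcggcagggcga

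An E2F word lay 2 bases before the start of FANCD2 (position -2), at position -7 in TOPBP1 and at position 43 in XRCC6, which also held a CCAAT box on its opposite strand at position -26. CHEK1 held a CCAAT box on the opposite strand at position -105, and the windows of RBBP8 and PARP2 held neither word. Of the 50 members, 43 had a promoter in the table. E2F words were in 9 of these 43 windows (20.9%), those of EXO1, MSH6, FANCD2, TOPBP1, PMS2, XRCC2, FANCC, FANCA and XRCC6, against 4.73% of the 16200 promoters of tested genes and 3.32% of all 35116 promoters. A CCAAT box was in 21 of the 43 windows (48.8%), against 34.2% and 34.6%. The word TTTGAA of the cell cycle homology region was in 4 of the 43 (9.30%), against 10.5% of tested and 15.2% of all promoters. These are matches of letters, not sites. Of the 9 genes with an E2F word, 5 were called after knockdown in at least 1 line, in both directions: XRCC6, PMS2, MSH6, EXO1 and TOPBP1. Of the 50 members 21 (42%) were called in at least 1 line, as were 43.3% of all genes.

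Per kilobase of exon, 4 members had far higher levels than the rest: 3 end-joining genes and PARP1. In SCC-15 and CAL-27 controls alike, XRCC6 (the Ku70 subunit) led, with 203 CPM per kb in SCC-15 and 220 CPM per kb in CAL-27, followed by XRCC5 (Ku80; 85.3 and 73.2 CPM per kb), PARP1, which senses strand breaks (83.0 and 66.4 CPM per kb), and PRKDC, the gene of DNA-PKcs (55.7 and 47.0 CPM per kb). RAD54B, a helicase of recombination, was lowest in SCC-15 controls at 1.12 CPM per kb and had 0.855 CPM per kb in CAL-27 controls, in which RAD50 was lowest at 0.761 CPM per kb. In GENCODE 29, 79.7% of the exon bases of RAD50, 59.1% of those of RAD54B and 27.9% of those of ATRIP are shared with another gene on the same strand, and how the counting treated reads in shared exons is not given, so the levels of these 3 genes can be too low. All 50 members together took 0.396% to 0.402% of the scaled counts in CAL-27 shTTK and 0.404% to 0.411% in CAL-27 shControl, ranges that did not overlap. In SCC-15 the order was the other way round, with 0.484% to 0.497% in shTTK and 0.473% to 0.477% in shControl. These sums rest on XRCC6, PRKDC, PARP1 and XRCC5, which together had a mean of 2225 CPM in CAL-27 shTTK and 2325 CPM in CAL-27 shControl, and of 2753 CPM in SCC-15 shTTK and 2587 CPM in SCC-15 shControl. The other 46 members summed to 1751 to 1781 CPM in CAL-27 shTTK, against 1724 to 1766 CPM in CAL-27 shControl, and to 2135 to 2196 CPM in SCC-15 shTTK, against 2131 to 2169 CPM in SCC-15 shControl, ranges that overlapped in both lines.

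In CAL-27, 10 of the 50 genes (20%, where 27.3% of all genes were called) changed after TTK knockdown, and the changes were small. RBBP8 (CtIP, which starts resection of broken ends), FANCE, RAD9A and PMS2 rose, and BRCA2, NBN, XRCC6, RNF8, PARP1 and MSH6 fell, while the kinases ATM, ATR, CHEK1 and CHEK2 had log2 fold changes between 0.01 and 0.06 and were not called. A gene was called when its adjusted p in edgeR's quasi-likelihood test, corrected over all 16946 genes by Benjamini-Hochberg, was under 0.05. The 4 higher calls are 8% of the members, where 11.6% of all genes were called higher, and the 6 lower calls are 12%, where 15.7% were called lower. The median log2 fold change of the members was -0.02 and the median of its size was 0.096, against -0.01 and 0.166 over all tested genes. In 23 of the 50 members the shTTK and shControl libraries did not overlap, where 38.4% of all genes had no overlap. In these bulk samples, a change in how many cells are in a phase or state and a change in RNA per cell cannot be told apart.

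**Figure D1:**
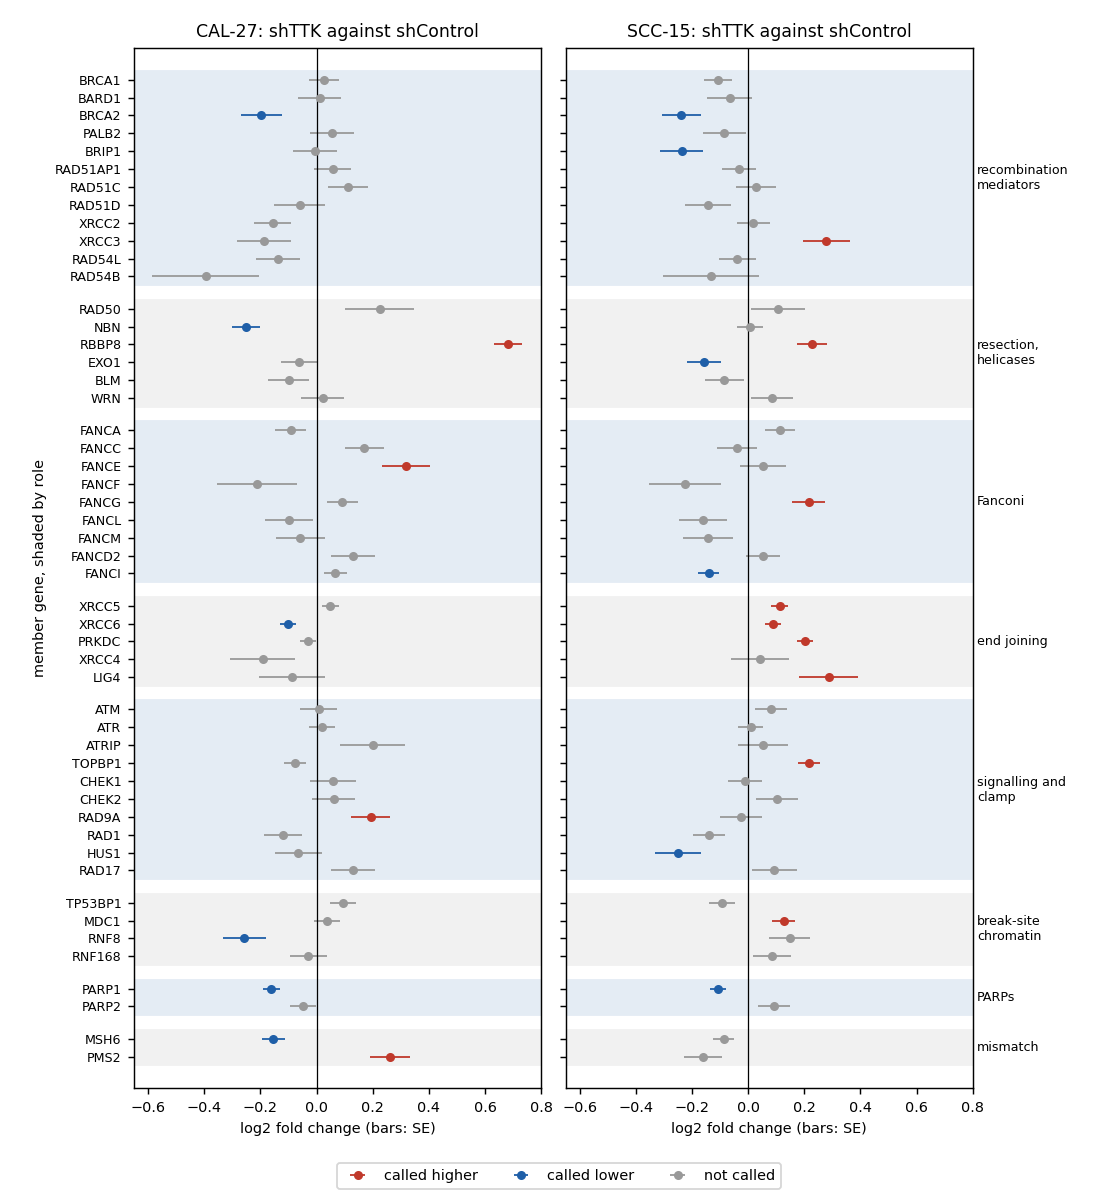
Log2 fold change (x axis) of each of the 50 members (rows, shaded by role) after TTK knockdown, shTTK over shControl, in CAL-27 (left) and SCC-15 (right); points are estimates, bars are standard errors, and colour gives the call. RBBP8 stands alone at 0.68 in CAL-27, and the called changes of the other members lie between -0.26 and 0.32.

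RBBP8 was the member with the largest change. It had 88.5, 94.7 and 99.4 CPM in the CAL-27 shTTK libraries, against 58.6, 56.1 and 61.7 CPM in the shControl libraries. Every shTTK library was far above every control, and the log2 fold change of 0.68 ± 0.050 (SE) corresponds to a level 1.60 times as high (edgeR adjusted p = 1.81e-19). Of the 5 other genes of resection and the helicases, NBN, the subunit of the MRE11-RAD50-NBN complex that recruits ATM to breaks, fell to 60.2, 61.7 and 56.9 CPM with shTTK, against 73.3, 68.3 and 71.5 CPM with shControl, with no overlap (log2 fold change -0.25 ± 0.049, edgeR adjusted p = 3.24e-05). RBBP8 and NBN, which work together at the start of resection, thus moved in opposite directions. RAD50, EXO1, BLM and WRN were not called, with log2 fold changes from -0.10 to 0.22.

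Among the 12 recombination mediators, 1 passed the test in CAL-27. BRCA2, a central mediator of strand invasion, had 28.8, 25.8 and 28.7 CPM with shTTK, against 31.5, 34.3 and 29.7 CPM with shControl. The groups lay side by side without overlap, and BRCA2 was lower by 12.7% (log2 fold change -0.20 ± 0.074, edgeR adjusted p = 0.0373). This call did not hold up: without CAL-27 shTTK library 1, 2 or 3, CAL-27 shControl library 1 or 2, SCC-15 shTTK library 1 or 2 or SCC-15 shControl library 2 or 3, each left out alone, the log2 fold change was between -0.21 and -0.12 and the adjusted p between 0.0551 and 0.328. DESeq2 (adjusted p = 0.0764), limma-voom (0.0641), the fit of CAL-27 alone (0.0597) and the fit of every gene with a read (0.0899) did not call it either. The 11 uncalled mediators, among them BRCA1, BARD1 and PALB2, had log2 fold changes between -0.40 (RAD54B, the lowest in counts) and 0.11 (RAD51C).

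Of the 9 Fanconi genes, FANCE, a subunit of the core complex that bridges it to FANCD2, rose to 19.5, 21.5 and 20.9 CPM with shTTK, against 16.7, 16.7 and 16.3 CPM with shControl. The groups were clear of each other, with a log2 fold change of 0.32 ± 0.086 (edgeR adjusted p = 0.00251). The other 8 were not called, including FANCD2 and FANCI, the pair that the core complex ubiquitinates, with log2 fold changes of 0.13 and 0.07. Of the 5 end-joining genes, XRCC6 fell to 685, 664 and 680 CPM with shTTK, against 732, 729 and 714 CPM with shControl, with no overlap. This is a change of -6.74% (log2 fold change -0.10 ± 0.029, edgeR adjusted p = 0.00462), and the call was lost without CAL-27 shControl library 2 (-0.08, adjusted p = 0.0689) and in the fit of every gene with a read (-0.08, adjusted p = 0.0907). Its partner XRCC5 was not called, at a log2 fold change of 0.05 ± 0.031.

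Among the 10 signalling and clamp genes, RAD9A, a subunit of the checkpoint clamp, rose to 39.1, 41.0 and 43.3 CPM with shTTK, against 37.9, 34.3 and 35.9 CPM with shControl (log2 fold change 0.19 ± 0.070, edgeR adjusted p = 0.0325). The groups did not overlap but came close, and the call was lost without CAL-27 shTTK library 2 or 3 or CAL-27 shControl library 2 or 3, with adjusted p between 0.0779 and 0.112, and with DESeq2 (0.0726). The other clamp subunits, RAD1 and HUS1, had log2 fold changes of -0.12 and -0.07 and were not called.

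At break-site chromatin, RNF8, the ubiquitin ligase that marks histones next to a break, fell to 25.3, 26.7 and 20.1 CPM with shTTK, against 28.4, 29 and 28.9 CPM with shControl (log2 fold change -0.26 ± 0.078, edgeR adjusted p = 0.00777). Library 3 of shTTK lay well below the other two, and without it the log2 fold change was -0.12 (adjusted p = 0.299). RNF168, the ligase that acts after RNF8, MDC1 and TP53BP1 were not called. PARP1 fell to 434, 416 and 427 CPM with shTTK, against 475, 479 and 475 CPM with shControl, every knockdown library below every control (log2 fold change -0.16 ± 0.030, edgeR adjusted p = 1.02e-05). PARP2, its smaller relative, was not called at -0.05 ± 0.046.

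Both mismatch repair genes changed in CAL-27, in opposite directions. PMS2, the endonuclease subunit of MutL, had 33.8, 37.2 and 34.8 CPM with shTTK, against 27.4, 30.4 and 30.5 CPM with shControl (log2 fold change 0.26 ± 0.070, edgeR adjusted p = 0.00253). MSH6, a subunit of the mismatch sensor, had 103, 103 and 104 CPM with shTTK, against 116, 115 and 115 CPM with shControl (log2 fold change -0.15 ± 0.041, edgeR adjusted p = 0.00202). Neither pair of groups overlapped, and per kilobase the level of PMS2 relative to MSH6 was 0.952 ± 0.0476 with shTTK and 0.714 ± 0.0469 with shControl (SD, n = 3 each). PMS2 has near-identical pseudogene copies, so its counts are uncertain. The calls of RBBP8, NBN, FANCE, PARP1, PMS2 and MSH6, 6 of the 10, held in all 12 fits without 1 library and in every alternative run.

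**Figure D2:**
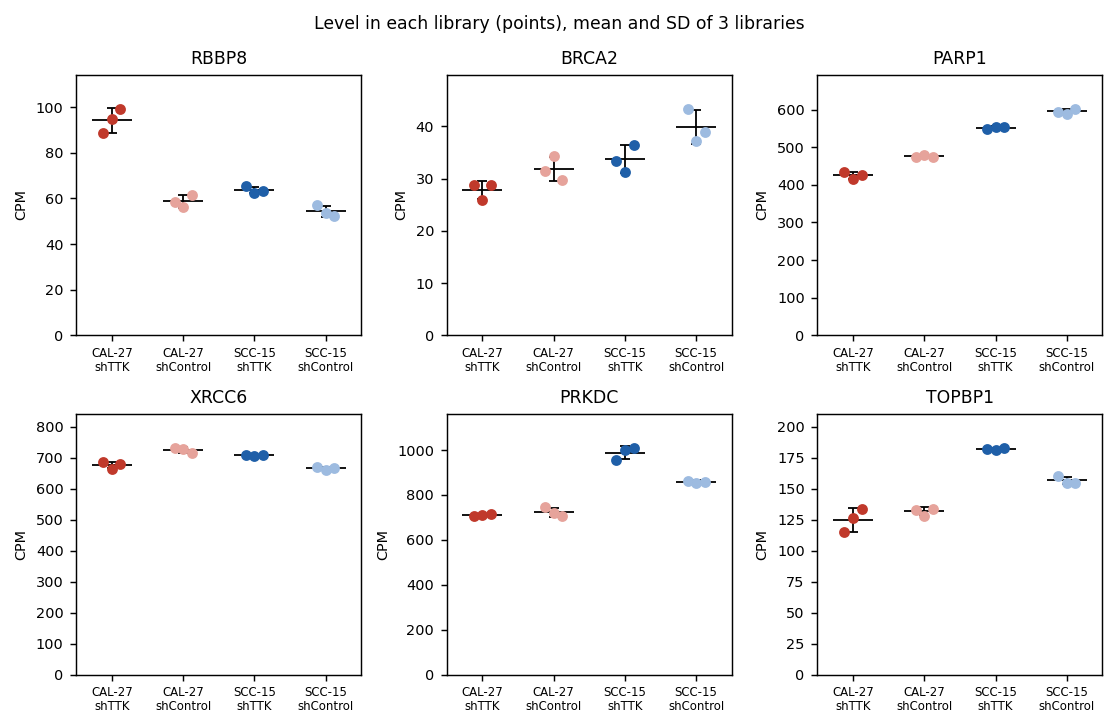
CPM (y axis) in each of the 12 libraries (points) for 6 members, with the mean as a line and the SD of 3 libraries as the bar, shTTK left of shControl in each line. RBBP8 is highest in CAL-27 shTTK (88.5 to 99.4 CPM), PARP1 and BRCA2 are lower with shTTK in both lines, and XRCC6 is lower with shTTK in CAL-27 and higher in SCC-15.

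In SCC-15, where TTK was lowered further, 15 of the 50 genes changed (30%, where 27.7% of all genes were called), again by small amounts. RBBP8, XRCC3, FANCG, XRCC5, XRCC6, PRKDC, LIG4, TOPBP1 and MDC1 rose, and BRCA2, BRIP1, EXO1, FANCI, HUS1 and PARP1 fell. The 9 higher calls are 18% of the members, where 13.4% of all genes were called higher, and the 6 lower calls are 12%, where 14.3% were called lower. The median log2 fold change of the members was 0.01 and the median of its size 0.105, against 0.00 and 0.170 over all tested genes. The libraries of the groups did not overlap in 24 members, where 38.9% of all genes had no overlap. In the fit without both SCC-15 libraries numbered 1, added after the data were seen, 6 of the 9 higher and 2 of the 6 lower calls remained.

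End joining was the role with the most called genes in SCC-15: 4 of its 5 genes rose (80%, where 13.4% of all genes were called higher). In the list of other end-joining genes, with 15 tested, 2 rose and 3 fell in SCC-15. PRKDC had 957, 1000 and 1010 CPM with shTTK, against 864, 853 and 860 CPM with shControl, with no overlap (log2 fold change 0.20 ± 0.029, edgeR adjusted p = 2.39e-08). XRCC5 had 491, 515 and 507 CPM with shTTK, against 472, 463 and 464 CPM with shControl (0.11 ± 0.030, edgeR adjusted p = 0.00224). XRCC6 had 710, 706 and 708 CPM with shTTK, against 669, 662 and 668 CPM with shControl (0.09 ± 0.029, edgeR adjusted p = 0.0146). All 3 subunits of the DNA-PK complex were thus above every control library, by 15.1%, 8.16% and 6.26%. LIG4, the ligase that seals the ends, had 14.6, 15.0 and 14.1 CPM with shTTK, against 12.1, 11.5 and 12.1 CPM with shControl (0.29 ± 0.11, edgeR adjusted p = 0.0312), also without overlap. Its call was lost without SCC-15 shTTK library 1 or 2 or SCC-15 shControl library 1, 2 or 3 (log2 fold change 0.27 to 0.31, adjusted p 0.0536 to 0.0965) and without both libraries numbered 1 (0.30, adjusted p = 0.0972). XRCC4, its partner, was not called at 0.04 ± 0.11.

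Of the 12 recombination mediators, 1 rose and 2 fell in SCC-15. XRCC3, which acts in a complex with RAD51C, had 26.0, 24.4 and 26.5 CPM with shTTK, against 21.0, 22.4 and 19.9 CPM with shControl (log2 fold change 0.28 ± 0.084, edgeR adjusted p = 0.00724). BRCA2 had 33.4, 31.3 and 36.5 CPM with shTTK, against 43.4, 37.1 and 38.9 CPM with shControl (-0.24 ± 0.070, edgeR adjusted p = 0.00549). BRIP1, a helicase that binds BRCA1, had 24.3, 27.4 and 25 CPM with shTTK, against 28.5, 32.1 and 29.7 CPM with shControl (-0.24 ± 0.076, edgeR adjusted p = 0.0132). The groups of all 3 genes were separate, though for BRCA2 only narrowly. The BRCA2 call was lost without SCC-15 shTTK library 2 (-0.18, adjusted p = 0.0829), SCC-15 shControl library 1 (-0.17, adjusted p = 0.102) or both libraries numbered 1 (-0.16, adjusted p = 0.166), that of BRIP1 without SCC-15 shTTK library 1 or 3 or SCC-15 shControl library 2 (-0.22 to -0.18, adjusted p 0.0507 to 0.128), and that of XRCC3 without both libraries numbered 1 (0.27, adjusted p = 0.0560). Of XRCC3's exon bases, 76.7% are shared with a gene on the opposite strand, and whether the counting used strand is not given.

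RBBP8 rose in SCC-15 too, with 65.3, 62.3 and 63.4 CPM with shTTK, against 57.1, 53.4 and 52.5 CPM with shControl. The groups did not overlap, and the log2 fold change was 0.23 ± 0.052 (edgeR adjusted p = 0.000370). It was the 1 member that rose in both lines. EXO1, the nuclease that extends resected ends, had 42.9, 47.9 and 47.3 CPM with shTTK, against 52.3, 54.1 and 47.6 CPM with shControl. The groups overlapped, since shTTK library 2 was above shControl library 3 (-0.16 ± 0.060, edgeR adjusted p = 0.0401). The call was lost without SCC-15 shTTK library 1, SCC-15 shControl library 1 or 2, CAL-27 shTTK library 1 or 3 or CAL-27 shControl library 2 (-0.15 to -0.10, adjusted p 0.0511 to 0.261), without both libraries numbered 1 (-0.09, adjusted p = 0.389), with RLE size factors (0.0563), DESeq2 (0.0917) and every gene with a read (0.113). NBN, which fell in CAL-27, was at 93.2, 91.4 and 97.6 CPM with shTTK and 98.5, 89.7 and 92.7 CPM with shControl, overlapping groups that were not called.

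In the Fanconi pathway, FANCG, a core complex subunit, had 49.0, 48.4 and 49.2 CPM with shTTK, against 39.3, 41.8 and 45.3 CPM with shControl (log2 fold change 0.22 ± 0.058, edgeR adjusted p = 0.00253). FANCI had 137, 140 and 143 CPM with shTTK, against 155, 157 and 150 CPM with shControl (-0.14 ± 0.039, edgeR adjusted p = 0.00315). Neither pair of groups overlapped, but both calls were lost without the libraries numbered 1 (FANCG 0.17, adjusted p = 0.0723; FANCI -0.12, adjusted p = 0.0531). The other 7 Fanconi genes, with log2 fold changes between -0.23 (FANCF) and 0.11 (FANCA), were not called.

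TOPBP1, which activates ATR at the clamp, rose to 182, 181 and 183 CPM with shTTK, against 160, 155 and 155 CPM with shControl. The shTTK libraries were close together and all above the controls (log2 fold change 0.22 ± 0.038, edgeR adjusted p = 3.83e-06). HUS1, a clamp subunit, had 22.4, 22.5 and 20.6 CPM with shTTK, against 27.2, 24.7 and 25.9 CPM with shControl (-0.25 ± 0.081, edgeR adjusted p = 0.0146), separate groups whose call was lost without SCC-15 shTTK library 3 (-0.21, adjusted p = 0.0883), SCC-15 shControl library 1 (-0.21, adjusted p = 0.0852) or both libraries numbered 1 (-0.23, adjusted p = 0.0911). ATM, ATR, ATRIP, CHEK1, CHEK2, RAD9A, RAD1 and RAD17, the other 8 of the 10 signalling genes, had log2 fold changes between -0.14 and 0.10.

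MDC1, which binds phosphorylated histone H2AX at breaks, had 124, 129 and 129 CPM with shTTK, against 117, 120 and 112 CPM with shControl (log2 fold change 0.13 ± 0.041, edgeR adjusted p = 0.0129). The groups were apart, but the call was lost without SCC-15 shControl library 3 (0.10, adjusted p = 0.0966). PARP1 had 548, 555 and 554 CPM with shTTK, against 595, 588 and 603 CPM with shControl, every knockdown library below every control (-0.11 ± 0.029, edgeR adjusted p = 0.00293), and it just missed the threshold in the fit of every gene with a read (-0.09, adjusted p = 0.0501). PMS2 and MSH6 had log2 fold changes of -0.16 ± 0.069 and -0.09 ± 0.039 and were not called. The calls of RBBP8, XRCC5, XRCC6, PRKDC and TOPBP1, 5 of the 15, held in every alternative run.

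Over both lines, RBBP8 rose in both, BRCA2 and PARP1 fell in both, and XRCC6 fell in CAL-27 and rose in SCC-15. So 3 of the 50 members (6%) were called in the same direction in both lines, where 6.88% of all genes were, and 1 (2%) in opposite directions, where 4.81% were. A further 29 members (58.0%) were called in neither line, where 56.7% of all genes were called in neither. The BRCA2 calls were lost in several fits in each line. The CAL-27 call of XRCC6 was lost without CAL-27 shControl library 2 and in the fit of every gene with a read. That last fit also lost the SCC-15 call of PARP1.

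Whether a gene responded differently in the lines was tested by the difference of the changes, SCC-15 minus CAL-27. It was called in 11 members (22%, where 25.4% of all genes were called): 7 with a more positive change in SCC-15 (14%, where 13.3% of all genes were) and 4 with a more negative one (8%, where 12.1% were). TOPBP1 and PRKDC, called in SCC-15 and not in CAL-27, had differences of 0.29 ± 0.055 and 0.23 ± 0.041 (edgeR adjusted p = 1.62e-05 and 4.67e-06). In CAL-27, TOPBP1 had 115, 126 and 134 CPM with shTTK, against 133, 128 and 134 CPM with shControl, and PRKDC had 705, 709 and 714 CPM with shTTK, against 746, 719 and 707 CPM with shControl. Both were thus overlapping between groups in CAL-27 and separate in SCC-15. XRCC6, with its opposite changes, differed by 0.19 ± 0.041 (edgeR adjusted p = 0.000164).

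RBBP8 rose more in CAL-27, with a difference of -0.45 ± 0.073 (edgeR adjusted p = 5.68e-07). PMS2 also had the more positive change in CAL-27, by -0.42 ± 0.098 (edgeR adjusted p = 0.000490), and FANCI by -0.21 ± 0.056 (edgeR adjusted p = 0.00299). The more positive changes in SCC-15 also included XRCC3 at 0.47 ± 0.13, RNF8 at 0.41 ± 0.11 and NBN at 0.26 ± 0.067 (edgeR adjusted p = 0.00313, 0.00215 and 0.00186). The differences of TOPBP1, PRKDC, XRCC6, RBBP8, PMS2, FANCI, XRCC3, RNF8 and NBN, 9 of the 11, held in every alternative run. Those of FANCA (0.21 ± 0.077, edgeR adjusted p = 0.0360) and TP53BP1 (-0.19 ± 0.066, edgeR adjusted p = 0.0264) did not: FANCA's was lost without CAL-27 shTTK library 1 or 3, CAL-27 shControl library 2 or any 1 of the 6 SCC-15 libraries (0.17 to 0.21, adjusted p 0.0531 to 0.137), without both libraries numbered 1 (0.19, adjusted p = 0.105) and with every gene with a read (adjusted p = 0.0754), and TP53BP1's without SCC-15 shTTK library 3, SCC-15 shControl library 1 or CAL-27 shTTK library 2 or 3 (-0.18 to -0.17, adjusted p 0.0505 to 0.0611), without both libraries numbered 1 (-0.16, adjusted p = 0.112) and with DESeq2 (0.0519). BRCA2 and PARP1, lower in both lines, differed by -0.04 ± 0.10 and 0.05 ± 0.042 and were not called.

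The lines themselves differed far more in these genes than the knockdown moved them. Of the 50 members 41 were called between the controls (82%, where 76.0% of all genes were). In SCC-15 shControl libraries 33 of the 50 members were higher than in CAL-27 shControl libraries (66.0%, where 37.8% of all genes were called higher) and 8 were lower (16%, where 38.2% were called lower). The median log2 fold change was 0.32 for the members and -0.01 for all tested genes, while the median size was 0.326 for the members and 0.617 for all tested genes. The differences were therefore many but mostly modest: 6 members differed by at least 2-fold (12%, where 32.0% of all genes did). Of these, CHEK1, ATRIP, FANCD2, RAD50 and RAD1 were higher in SCC-15, and PARP2 was lower. In 43 members the control libraries of the lines did not overlap, where 77.3% of all genes had no overlap. Only 1 line stands on each side, so these are differences between SCC-15 and CAL-27 and no more.

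**Figure D3:**
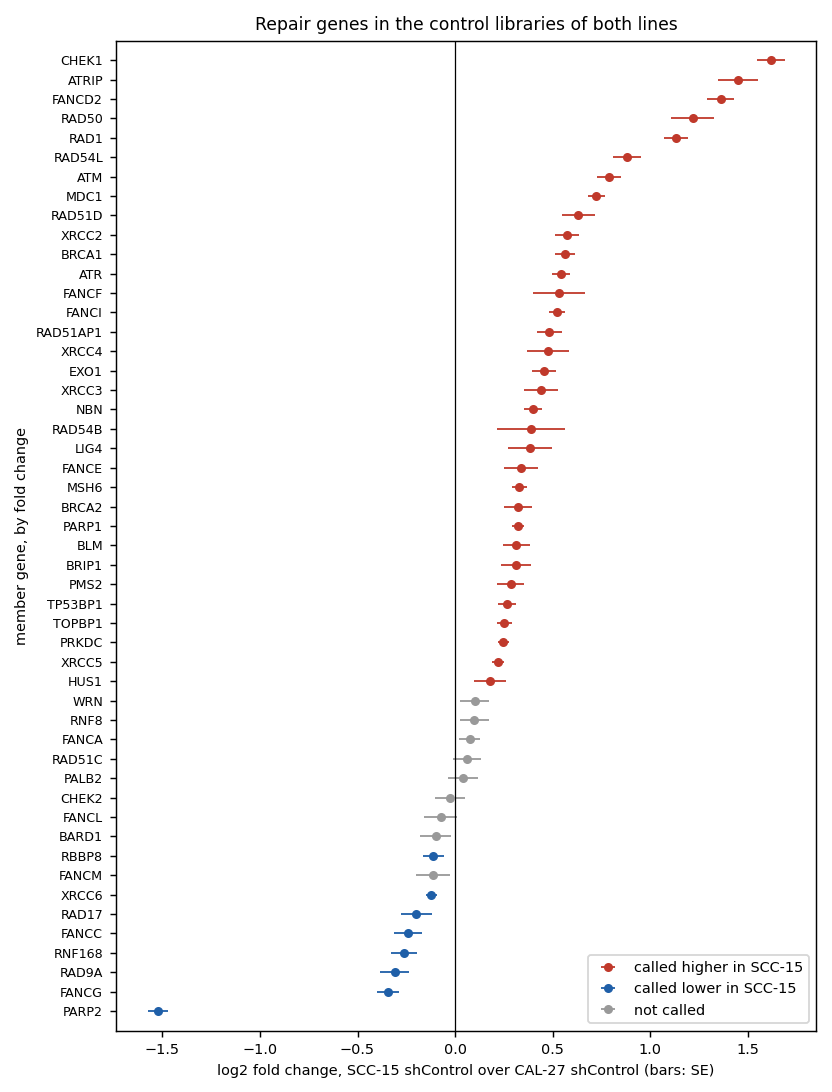
Log2 fold change of each member between the control libraries, SCC-15 shControl over CAL-27 shControl (x axis), with members ordered by it (rows); points are estimates, bars are standard errors, and colour gives the call. Of the 50 members 33 are called higher and 8 lower in SCC-15, with CHEK1 (1.62) and PARP2 (-1.52) at the ends.

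Of the 6 members with differences of at least 2-fold, 3 belong to damage signalling. CHEK1, the kinase downstream of ATR, had the largest difference of all members, with 54.6, 58.1 and 49.4 CPM in SCC-15 controls, against 18.6, 16.3 and 17.8 CPM in CAL-27 controls, 3.07 times as much (log2 fold change 1.62 ± 0.070, edgeR adjusted p = 5.38e-34). CHEK2, the kinase downstream of ATM, had 24.2, 23.3 and 23.3 CPM in SCC-15 controls, against 24.5, 24.9 and 22.7 CPM in CAL-27 controls, overlapping groups that were not called (-0.03 ± 0.077). Per kilobase, CHEK1 stood at 1.57 ± 0.131 times the level of CHEK2 in SCC-15 controls and at 0.503 ± 0.0480 times in CAL-27 controls (SD, n = 3 each), so the order of the checkpoint kinases was reversed between the lines. CHEK2 has near-identical pseudogene copies, which makes its counts uncertain.

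ATRIP, which brings ATR to single-stranded DNA, had 21.3, 23.6 and 22.6 CPM in SCC-15 controls, against 8.35, 7.02 and 9.41 CPM in CAL-27 controls (log2 fold change 1.45 ± 0.10, edgeR adjusted p = 5.23e-22). ATR and ATM were higher too, with 97.8 ± 3.41 against 67.2 ± 3.05 CPM and 54.9 ± 0.754 against 31.7 ± 2.59 CPM (SD, n = 3 each; log2 fold changes 0.54 and 0.79). Within the clamp the subunits went apart. RAD1 had 61.6, 62.0 and 58.1 CPM in SCC-15 controls, against 27.4, 27.5 and 28.1 CPM in CAL-27 controls (1.13 ± 0.061, edgeR adjusted p = 2.73e-28), while RAD9A was lower in SCC-15, with 29 ± 3.65 against 36.0 ± 1.77 CPM (-0.31 ± 0.073, edgeR adjusted p = 0.000114). The level of RAD9A relative to RAD1, per kilobase, was 0.776 ± 0.0728 in SCC-15 controls and 2.11 ± 0.114 in CAL-27 controls. HUS1 (0.18, adjusted p = 0.0403) and RAD17, which loads the clamp (-0.20, adjusted p = 0.0225), were called by a narrow margin: HUS1 was lost without SCC-15 shControl library 1 or 3 or CAL-27 shControl library 1 or 2 (0.09 to 0.18, adjusted p 0.0684 to 0.378), with RLE size factors (0.0622), DESeq2 (0.104) and every gene with a read (0.0738), and RAD17 without SCC-15 shControl library 1 or 2 or CAL-27 shControl library 1 (-0.19 to -0.17, adjusted p 0.0535 to 0.0846), and both without the SCC-15 libraries numbered 1.

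FANCD2 had the largest difference among the Fanconi genes, with 54.0, 52.5 and 51.3 CPM in SCC-15 controls, against 23.0, 18.9 and 19.5 CPM in CAL-27 controls (log2 fold change 1.36 ± 0.070, edgeR adjusted p = 1.19e-29). Its partner FANCI was higher by less, 154 ± 3.42 against 108 ± 3.53 CPM (0.52 ± 0.040), and the level of FANCD2 relative to FANCI, per kilobase, was 0.316 ± 0.00597 in SCC-15 controls and 0.177 ± 0.0244 in CAL-27 controls. FANCD2 also has pseudogene copies. In the core complex FANCE and FANCF were higher in SCC-15 (0.34 and 0.53), FANCC and FANCG were lower (-0.24 and -0.34), and FANCA, FANCL and FANCM were not called.

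**Figure D4:**
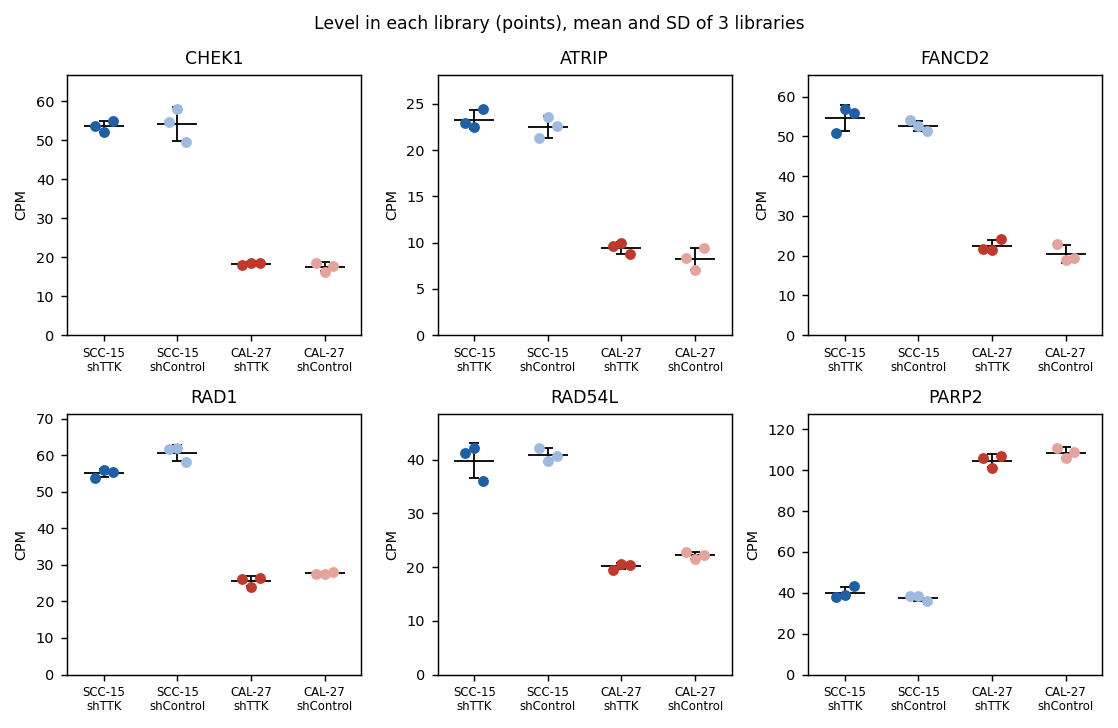
CPM (y axis) in each of the 12 libraries (points) for 6 members that differ between the lines, with the mean as a line and the SD of 3 libraries as the bar. SCC-15 stands left of CAL-27. CHEK1, ATRIP, FANCD2, RAD1 and RAD54L are higher in SCC-15 and PARP2 is lower, in shTTK and in shControl libraries alike.

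Of the 12 recombination mediators 9 were higher in SCC-15 controls and 3, BARD1, PALB2 and RAD51C, were not called. RAD54L, a motor protein of strand exchange, had 42.2, 39.7 and 40.7 CPM in SCC-15 controls, against 22.9, 21.5 and 22.2 CPM in CAL-27 controls (log2 fold change 0.88 ± 0.071, edgeR adjusted p = 6.03e-19). BRCA1 was at 79.0 ± 3.25 against 53.5 ± 3.43 CPM (0.56 ± 0.051), while its partner BARD1 was at 25.4 ± 2.0 against 27.2 ± 2.80 CPM (-0.10 ± 0.078). RAD54B (0.39 ± 0.17, edgeR adjusted p = 0.0385) was lost without SCC-15 shControl library 1 or 2 or CAL-27 shControl library 1 or 2 (0.22 to 0.37, adjusted p 0.0803 to 0.308), without both libraries numbered 1 (0.37, adjusted p = 0.0812), with DESeq2 (0.0806), limma-voom (0.0665) and every gene with a read (0.0664). In resection, RAD50 had 17.5, 16.4 and 17.8 CPM in SCC-15 controls, against 6.58, 7.07 and 8.67 CPM in CAL-27 controls (1.22 ± 0.11, edgeR adjusted p = 1.66e-16). The gene that shares most of its exons had at most 0.369 CPM in any library. That low level does not show how reads in the shared exons were counted. NBN, EXO1 and BLM were higher by 0.31 to 0.45. RBBP8 was called lower in SCC-15 at -0.11 (adjusted p = 0.0489), but its groups overlapped and the call was lost without SCC-15 shControl library 2 or 3, CAL-27 shControl library 1 or 3 or SCC-15 shTTK library 2 or 3 (-0.12 to -0.08, adjusted p 0.0520 to 0.212), with limma-voom (0.0665), the replicate block (0.0520) and every gene with a read (0.0562).

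PARP2 was the member lower in SCC-15 by the largest amount. It had 38.5, 38.4 and 36.0 CPM in SCC-15 controls, against 111, 106 and 109 CPM in CAL-27 controls, 0.347 times the level (log2 fold change -1.52 ± 0.051, edgeR adjusted p = 3.32e-41). PARP1 went the other way, with 595 ± 7.62 against 476 ± 2.26 CPM (0.32 ± 0.029). Per kilobase, PARP2 stood at 0.111 ± 0.00543 times the level of PARP1 in SCC-15 controls and at 0.398 ± 0.0105 times in CAL-27 controls. Among end-joining genes PRKDC, XRCC5, XRCC4 and LIG4 were higher in SCC-15 by 0.22 to 0.48, and XRCC6 was lower (-0.12 ± 0.029, edgeR adjusted p = 0.000108). MDC1 (0.72 ± 0.043), TP53BP1 (0.27), MSH6 (0.33) and PMS2 (0.29) were higher, RNF168 was lower (-0.26) and RNF8 was not called.

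The differences between the controls were set beside those of the genes around each member. For each member the 10 tested protein-coding genes on either side were taken. All 20 neighbours of ATRIP on chromosome 3 had a positive log2 fold change between the controls, with a median of 1.24, beside 1.45 for ATRIP itself. The medians were 0.86 around ATM and 0.76 around CHEK1 on chromosome 11, 0.71 around FANCD2 on chromosome 3 and 0.68 around RAD1 on chromosome 5, with 15 to 18 of 20 neighbours positive in each case. XRCC3 on chromosome 14, at 0.44, had neighbours with a median of 1.06. Around PARP2 on chromosome 14, all 12 neighbours found were lower in SCC-15, with a median of -1.91. The neighbours of RAD50 and RAD54L had medians of -0.15 and 0.06, and those of HUS1 (-0.90), FANCI (-0.67), ATR (-0.66) and LIG4 (-0.57) were lower while these members were higher. The sign of the neighbours' median was that of the member in 30 of the 50 members (60%), against 64.4% of the 13408 protein-coding genes treated in the same way, and in 25 of the 41 called members. The number of gene copies was not measured, and its part in the difference was not tested.

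**Figure D5:**
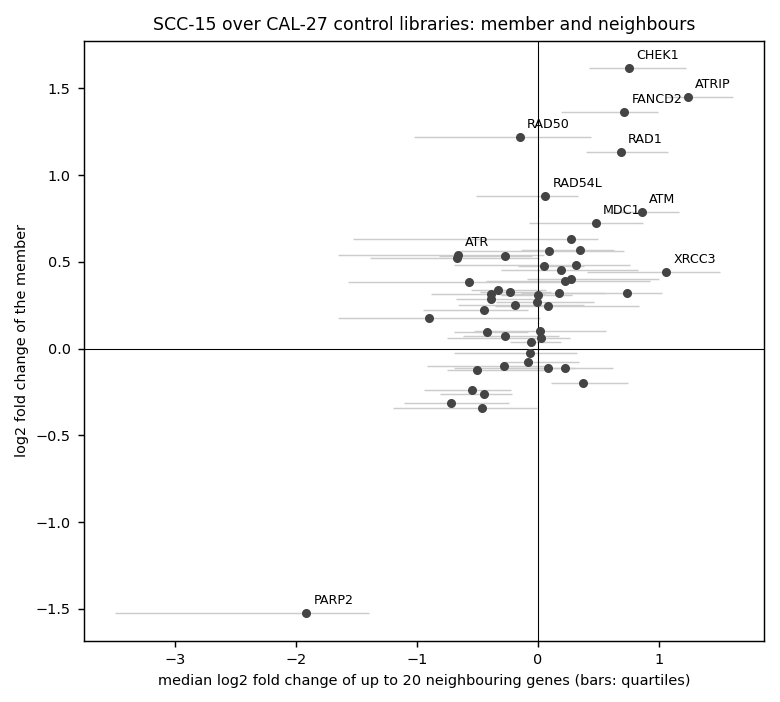
Log2 fold change of each member between control libraries, SCC-15 over CAL-27 (y axis), against the median log2 fold change of up to 20 neighbouring tested protein-coding genes (x axis); each point is 1 member, and bars give the quartiles of its neighbours. PARP2 (-1.52) lies with its neighbours at -1.91 and ATRIP (1.45) with its at 1.24, while RAD50 (1.22) stands above neighbours at -0.15.

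A list of 114 other repair and checkpoint genes was set beside the members, of which 111 were tested. After knockdown in CAL-27, 8 rose and 25 fell (7.21% and 22.5%, where 11.6% of all genes were called higher and 15.7% lower). WEE1, the kinase that restrains CDK1, rose (0.36 ± 0.059), and ERCC5, an excision nuclease, rose to 5.36 ± 0.694 CPM with shTTK, against 3.32 ± 0.663 CPM with shControl (0.69 ± 0.18). CDC25A, the phosphatase that opposes WEE1, fell (-0.40 ± 0.098), as did TDP1, which frees blocked ends (-0.40 ± 0.11), ERCC4 (-0.34 ± 0.094), UNG, the uracil glycosylase (-0.32 ± 0.052), FAAP20 (-0.29 ± 0.072) and REV3L, the catalytic subunit of a translesion polymerase (-0.28 ± 0.061). SFR1 (0.27), SMUG1 (0.17) and HLTF (0.15) rose. The largest edgeR adjusted p among these genes was 0.0363, for SFR1. The CDC25A call was lost without CAL-27 shTTK library 2 (-0.25, adjusted p = 0.0574) and that of FAAP20 without CAL-27 shControl library 2 (-0.19, adjusted p = 0.0815) or CAL-27 shTTK library 3 (-0.21, adjusted p = 0.0519). Those of SFR1 (without CAL-27 shTTK library 2 or 3 or CAL-27 shControl library 2 or 3), SMUG1 (without CAL-27 shTTK library 3 or CAL-27 shControl library 1 or 3) and HLTF (without CAL-27 shTTK library 2 or CAL-27 shControl library 3) were lost too, with adjusted p between 0.0650 and 0.434, and with DESeq2, which called 5 of the 111 higher.

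In SCC-15, 16 of the 111 rose and 15 fell (14.4% and 13.5%, where 13.4% of all genes were called higher and 14.3% lower). TOP3A, the topoisomerase that works with BLM, rose (0.34 ± 0.039), as did ERCC1 (0.33 ± 0.065), RFC2 (0.28 ± 0.047), POLM (0.23), APEX1 (0.23) and REV3L (0.15). UNG fell further than in CAL-27, to 85.8 ± 2.21 CPM with shTTK, against 130 ± 4.78 CPM with shControl (-0.60 ± 0.045, edgeR adjusted p = 4.85e-19), with a difference between lines of -0.28 ± 0.069 (edgeR adjusted p = 0.000904). APLF (-0.73 ± 0.23), EME1 (-0.47 ± 0.12), UVSSA (-0.41 ± 0.083), HLTF (-0.23) and WEE1 (-0.18) fell too. The largest edgeR adjusted p among these genes was 0.0469, for WEE1. Without both libraries numbered 1, POLM, APLF, HLTF (-0.15) and WEE1 (-0.10) were not called, with adjusted p between 0.0505 and 0.358. POLM was also lost without SCC-15 shControl library 2 (adjusted p = 0.0508), APLF without SCC-15 shTTK library 2 (adjusted p = 0.0717) and REV3L without SCC-15 shTTK library 2 or 3 or SCC-15 shControl library 1, 2 or 3 (adjusted p 0.0557 to 0.209). WEE1 was lost without SCC-15 shTTK library 1 or 2, SCC-15 shControl library 1 or 2, CAL-27 shTTK library 2 or 3 or CAL-27 shControl library 3 (adjusted p 0.0647 to 0.244), with RLE size factors (0.0615) and with the replicate block (0.0878). Between the controls, 60 of the 111 were higher in SCC-15 and 25 lower (54.1% and 22.5%, where 37.8% of all genes were called higher and 38.2% lower).

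The S phase genes mostly fell in CAL-27, while in SCC-15 more of them rose than fell. Of 18 listed genes of DNA replication, 12 fell in CAL-27 (66.7%, where 15.7% of all genes were called lower) and 6 did not pass the test, with RRM2, a subunit of ribonucleotide reductase, at -0.35 ± 0.044. In SCC-15, 7 rose and 3 fell (38.9% and 16.7%, where 13.4% of all genes were called higher and 14.3% lower), from MCM7, a subunit of the replicative helicase, at 0.26 ± 0.030 to E2F1 at -0.16 ± 0.041; without SCC-15 shControl library 2, 1 fell. Their summed level was 2520 to 2679 CPM in CAL-27 shTTK libraries, against 2833 to 2851 CPM in CAL-27 shControl, and 4494 to 4513 CPM in SCC-15 shTTK libraries, against 4238 to 4288 CPM in SCC-15 shControl. Between the controls 15 of the 18 were higher in SCC-15 and 1, CDC45, was lower. The part of S phase content in the members' changes was not tested.

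Of 18 genes that p53 induces after damage, 2 rose and 5 fell in CAL-27 (11.1% and 27.8%, beside 11.6% and 15.7% of all genes) and 3 rose and 2 fell in SCC-15 (16.7% and 11.1%, beside 13.4% and 14.3% of all genes); without CAL-27 shControl library 1, 1 rose in CAL-27. BTG2, an antiproliferative factor, rose by the same amount in both lines, to 62.1 ± 3.05 CPM with shTTK, against 41.1 ± 3.97 CPM with shControl in CAL-27, and to 46.7 ± 1.36 CPM, against 31.1 ± 1.34 CPM, in SCC-15 (log2 fold change 0.59 in each). AEN, an exonuclease of apoptosis, fell in CAL-27 to 13.0 ± 0.659 CPM, against 23.1 ± 1.38 CPM (-0.83 ± 0.083, edgeR adjusted p = 1.50e-13), and in SCC-15 its log2 fold change was -0.41 (difference between lines 0.42 ± 0.11, edgeR adjusted p = 0.00146). MDM2, the ubiquitin ligase of p53, fell in both, to 40.8 ± 2.94 CPM, against 49.7 ± 1.99 CPM, in CAL-27 (-0.28 ± 0.061, edgeR adjusted p = 0.000132) and to 46.2 ± 2.24 CPM, against 62.2 ± 3.93 CPM, in SCC-15 (-0.43 ± 0.058, edgeR adjusted p = 6.17e-09). CDKN1A, the cyclin-dependent kinase inhibitor p21, rose in SCC-15 to 90.5 ± 4.73 CPM, against 66.4 ± 3.07 CPM (0.44 ± 0.049, edgeR adjusted p = 1.41e-10), and was not called in CAL-27 at -0.09 ± 0.044, with a difference between lines of 0.54 ± 0.066 (edgeR adjusted p = 3.11e-09). The list as a whole thus had members going each way in both lines.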

How the data were processed

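The deposited counts are raw read counts by gene symbol, without normalization, of 12 poly(A), strand-specific (dUTP) RNA libraries, read as paired ends of 150 bases per the labels' protocols. The submitters' processing notes name build hg38, featureCounts 2.0.1, STAR 2.7.7a and Trim Galore 0.6.6. Which annotation was counted, with what strand setting and what rule for reads in several places, is not given in the sources used here. The labels put all libraries in batch 1.

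Groups and replicate numbers came from the titles. The 50 members and the gene lists were chosen with earlier results of these data known. Genes were kept with filterByExpr on the 4 groups, scaled by TMM and fitted with edgeR 4.0.16 (R 4.3.3, limma 3.58.1) as 4 group means with robust quasi-likelihood dispersions (8 residual and a median of 64.9 prior degrees of freedom; common biological coefficient of variation 0.0393). P-values are two-sided and adjusted by Benjamini-Hochberg over 16946 genes, and genes under 0.05 were called. Standard errors were taken as the size of the log2 change over the square root of F. Levels are CPM after TMM scaling, averaged over 3 libraries with their SD. Levels between genes are CPM per kb of exon in GENCODE 29, which also gave exon overlap and gene order. Depth, 16176655 to 18484112 counts per library, limits the precision of the members with few counts.

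All members are accounted for by role. Values per library are given for members called in both lines, for the called member with the largest change in each role and line, and for others chosen after their values were seen. Of the other repair genes, the called gene with the largest change per list, direction and line is named; some genes of these lists are not reported here. Alternatives were RLE size factors, DESeq2 1.42.0, limma-voom, filters looser (every gene with a read) and stricter (1 CPM in 3 libraries), fits of 1 line by itself, a block for the replicate number, and each library left out in turn. The fit without both SCC-15 libraries numbered 1 was added after the data were seen. The fits were tested on simulated data.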

Additional observations from a re-analysis of the deposited data

Results flagged for a closer look

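The knockdown change differed between SCC-15 and CAL-27 in 11 of the 50 repair genes (22%, where 25.4% of all genes were called). The difference, SCC-15 change minus CAL-27 change on the log2 scale, was tested in edgeR. It was positive for XRCC3 (0.47), RNF8 (0.41), TOPBP1 (0.29), NBN (0.26), PRKDC (0.23), FANCA (0.21) and XRCC6 (0.19). It was negative for RBBP8 (-0.45), PMS2 (-0.42), FANCI (-0.21) and TP53BP1 (-0.19). For RBBP8 the change had the same direction in both lines, 0.23 in SCC-15 and 0.68 in CAL-27. For XRCC6 both changes were called, 0.09 in SCC-15 and -0.10 in CAL-27. FANCA (0.11 in SCC-15 and -0.09 in CAL-27) and TP53BP1 (-0.09 in SCC-15 and 0.09 in CAL-27) were called in neither line by itself. The called differences of FANCA and TP53BP1 were lost in 9 and 4 of the 12 fits without 1 library. TTK was lowered by 56.9% in SCC-15 and by 31.4% in CAL-27, and the part of this unequal knockdown in the differences was not tested.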

How the results depend on the processing

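Of 3900 member values recomputed under 20 alternatives, 3786 kept their side of the threshold, 97 lost a call, 17 gained one and 0 reversed a called direction; in 61 the sign changed with no call in either fit. Without both SCC-15 libraries numbered 1, members lower after knockdown in SCC-15 numbered 2, against 6 with all libraries; the cause was not tested, and that fit has fewer samples. No other count of called members moved by over 1.5 times. Leaving out 1 library at a time gave 3 to 5 higher and 4 to 7 lower members in CAL-27, 7 to 9 and 4 to 6 in SCC-15, 6 to 7 larger and 3 to 5 smaller SCC-15 changes, 31 to 33 members higher and 6 to 8 lower in SCC-15 controls, and TTK changes of -0.59 to -0.49 in CAL-27 and -1.32 to -1.13 in SCC-15. With the replicate number as a block, 4 members rose and 6 fell in CAL-27, 9 rose and 6 fell in SCC-15, 7 and 4 differed between lines, and 33 were higher and 7 lower in SCC-15 controls, the lost call being RBBP8. Libraries with the same number in the groups of a line showed no shared deviation over all tested genes (correlations -0.0197 to 0.0345). These deviations include counting noise, so the correlations cannot exclude that libraries with the same number were prepared together. Members with few counts, such as RAD54B, have standard errors up to 0.19 on the log2 scale. Changes of that size and larger can go uncalled for them at this depth. RAD54B in CAL-27, at -0.40 ± 0.19, was not called.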

Other observations

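Of the 114 other repair genes listed, 3 did not pass the filter on low counts, among them NHEJ1, an end-joining scaffold, and GTF2H4, a subunit of TFIIH. NHEJ1 stayed at or below 0.192 CPM and GTF2H4 at or below 0.443 CPM on average in every group. In GENCODE 29, 65.4% of the exon bases of NHEJ1 are shared on the same strand with AC068946.1 and 79.0% of those of GTF2H4 with VARS2, which had 46.0 to 71.0 CPM. The part of this overlap in the low counts was not tested.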
